A study of Mus musculus with 8 samples.

Results

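The 10 genes described here are Klf2, Klf4, Klf5, Esrrb, Tfcp2l1, Tbx3, Nr0b1, Nr5a2, Zfp42, and Tcl1, which belong to the transcription factor network of naive pluripotency in mouse embryonic stem cells (ESCs). They were chosen by gene symbol, through the Ensembl identifiers that carry these symbols in the GENCODE M21 annotation, and make up 10 of the 37263 identifiers counted in each library. The label of transcription factors holds for 9 of them, whereas Tcl1 encodes a coactivator of the kinase Akt that binds no DNA by itself. RNA was sequenced from E14 cells, a feeder-free ESC line of strain 129/Ola, during the transition from serum to 2i, with 1 library at each of 4, 16, 24, and 32 hr. All cells came from serum medium with LIF and were moved to serum-free NDiff 227 medium with LIF, the MEK inhibitor PD0325901, and the GSK3 inhibitor CHIR99021, which together are called 2i. 4 of the libraries are from this medium alone (the 2i libraries) and 4 from 2i with 17 µM vitamin C (the vitC libraries), so that each of the 8 libraries is a combination of its own. No serum library was analysed here, and the earliest level is that at 4 hr after the medium was replaced. Both series come from 1 cell line, and no combination has a replicate culture.

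Naive ESCs hold themselves in a state close to the inner cell mass through factors that activate each other and the core factors Oct4 and Sox2. LIF acts on this network through STAT3, which activates Klf4 and Tfcp2l1, and through Akt, which acts on Tbx3. GSK3 inhibition stabilizes beta-catenin and relieves the repression of Esrrb, Klf2, and Tfcp2l1 by Tcf7l1, whereas MEK inhibition blocks the ERK signal that drives ESCs out of the naive state. Klf2, Klf4, and Klf5 are Krüppel-like zinc finger factors that share target sites. Esrrb and Nr5a2 are orphan nuclear receptors. Nr0b1 (Dax1) is a nuclear receptor without a DNA-binding domain that represses through its partners. Tfcp2l1 is of the grainyhead family and Tbx3 of the T-box family. Zfp42 (Rex1) is a zinc finger protein related to Yy1 and the usual reporter of the naive state.

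Promoters are shown for the 3 members whose levels in the vitC libraries lay below those in 2i from 16 hr on, and for Tfcp2l1 and Esrrb, which rose in both media. RefSeq promoters (GRCm38.p6, 250 bases before to 50 bases after the start) were found for 8 of the 10 members, and those of Klf5 and Tbx3 are not shown. The counts were made on another build, and the coordinates here belong to the promoters alone. Capitals mark matches, on either strand, to GGGNGNGG, a site of KLF and SP factors, or to TTCNNNGAA, a STAT site. The Nr0b1 promoter lies at chrX:86191525-86191824 on the plus strand, that of Zfp42 at chr8:43306960-43307259 on the minus strand, that of Tcl1 at chr12:105222688-105222987 on the minus strand, that of Tfcp2l1 at chr1:118627695-118627994 on the plus strand, and the first of the 2 Esrrb promoters at chr12:86360867-86361166 on the plus strand.
Nr0b1: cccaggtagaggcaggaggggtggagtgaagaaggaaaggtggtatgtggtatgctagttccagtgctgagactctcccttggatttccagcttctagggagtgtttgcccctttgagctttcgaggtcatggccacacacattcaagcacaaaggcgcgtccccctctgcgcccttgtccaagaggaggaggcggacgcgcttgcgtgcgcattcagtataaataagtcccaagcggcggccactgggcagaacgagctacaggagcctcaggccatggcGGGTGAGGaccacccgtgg
Zfp42: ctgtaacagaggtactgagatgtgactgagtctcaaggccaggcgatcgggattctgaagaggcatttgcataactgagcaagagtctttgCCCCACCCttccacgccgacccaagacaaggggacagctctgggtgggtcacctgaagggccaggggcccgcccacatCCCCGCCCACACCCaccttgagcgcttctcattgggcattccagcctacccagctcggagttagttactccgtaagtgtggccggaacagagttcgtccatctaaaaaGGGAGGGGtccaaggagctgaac
Tcl1: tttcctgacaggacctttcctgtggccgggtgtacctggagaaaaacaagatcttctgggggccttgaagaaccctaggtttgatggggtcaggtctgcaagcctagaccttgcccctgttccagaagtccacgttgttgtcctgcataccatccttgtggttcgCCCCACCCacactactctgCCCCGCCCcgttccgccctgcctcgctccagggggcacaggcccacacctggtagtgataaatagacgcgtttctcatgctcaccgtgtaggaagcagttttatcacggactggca
Tfcp2l1: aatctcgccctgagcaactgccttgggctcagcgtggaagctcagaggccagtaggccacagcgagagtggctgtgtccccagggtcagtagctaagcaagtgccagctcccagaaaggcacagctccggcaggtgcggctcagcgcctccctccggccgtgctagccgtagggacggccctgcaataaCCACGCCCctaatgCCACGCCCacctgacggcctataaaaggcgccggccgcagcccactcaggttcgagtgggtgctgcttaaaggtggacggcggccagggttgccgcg
Esrrb: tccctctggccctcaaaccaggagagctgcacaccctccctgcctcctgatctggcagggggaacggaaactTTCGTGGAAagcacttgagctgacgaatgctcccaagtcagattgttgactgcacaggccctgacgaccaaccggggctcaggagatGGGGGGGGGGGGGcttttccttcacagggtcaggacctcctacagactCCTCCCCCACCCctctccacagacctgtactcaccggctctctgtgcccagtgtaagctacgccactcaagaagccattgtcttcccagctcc
GGGNGNGG was present in 9 of the 10 promoters of these genes, with at least 1 such promoter in each of the 8 genes, while 49.5% of all 32851 promoters of this length held it. TTCNNNGAA was found in the first Esrrb promoter alone, against 8.3% of all promoters. AAGGTCA, the site of Esrrb and Nr5a2, and CTTTGAT, the TCF and LEF site, were in none of the 10, against 4.7% and 3.7% of all promoters. GGGNGNGG thus occurred in promoters of members that rose and of members that fell.

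The total counts ranged from 12940716 to 18434932 in the 2i libraries and from 4753528 to 13157570 in the vitC libraries. Counts are given as CPM, counts scaled to a common library total after TMM normalization, which keeps libraries comparable when a few genes take many reads. Where 4 values follow each other for a member, they are in the order 4, 16, 24, and 32 hr. The lowest count of any member in any library was 54, for Tcl1 in the vitC library of 24 hr, which is far above the floor of 3 counts. The file names place the libraries of 4 hr and 24 hr on lane 8 and those of 16 hr and 32 hr on lane 7. Every vitC ratio, 24 hr against 4 hr, and 32 hr against 16 hr are therefore comparisons within 1 lane. For 16 hr or 32 hr against 4 hr, time and lane cannot be told apart. Lars2, Gm23935, and ENSMUSG00000093077 took a share of counts that varied between libraries: 0.028%, 0.206%, 5.918%, and 0.564% at 4, 16, 24, and 32 hr in 2i, and 0.011%, 7.108%, 6.369%, and 4.214% with vitC. This share was lowest at 4 hr in both media, and at 16 hr and 32 hr it was higher with vitC.

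Expressed per exon length, as RPKM (CPM divided by the length of the merged exons in kilobases), the members covered a wide range of levels. Klf2 (median of the 8 libraries 64.8 RPKM), Tfcp2l1 (63.4 RPKM), and Zfp42 (60.7 RPKM) were the highest, and their order changed between libraries: Klf2 was above Tfcp2l1 in 3 of 8 and Tfcp2l1 above Zfp42 in 4 of 8. Esrrb followed at 35.1 RPKM and lay below Zfp42 in 8 of 8 libraries. Nr0b1 was at 19.5 RPKM, Klf4 at 13.8, Tcl1 at 11.6, Nr5a2 at 10.9, and Tbx3 at 10.4, and from Nr0b1 to Nr5a2 each was above the next in only 5 or 6 of 8 libraries, so that these neighbours did not separate. Klf5 was the lowest in median, at 3.47 RPKM, and lay below Tbx3 in 8 of 8 libraries. Klf2 exceeded 95.6% of the protein-coding genes tested in level, and Klf5 38.5% of them.

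**Figure D1:**
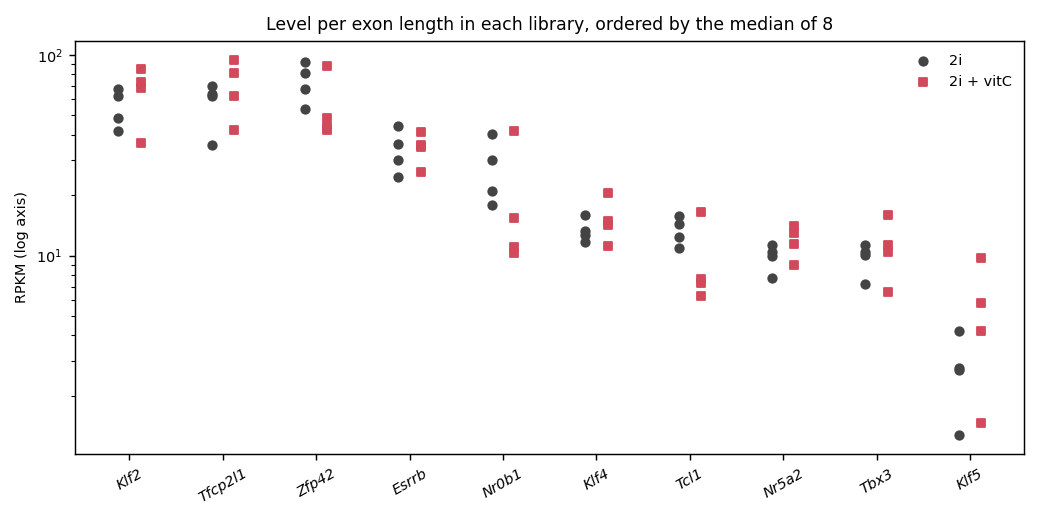
Level of each member in the 8 libraries as RPKM on a log axis, ordered by the median, with circles for 2i and squares for 2i with vitC. The points of Klf2, Tfcp2l1, and Zfp42 cover the same range at the top, while Klf5 spans 1.28 to 9.70 RPKM and Nr0b1 10.3 to 42.0 RPKM.

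Most of the members were higher after 4 hr. At 24 hr, the time with a comparison within a lane, 6 of the 10 had risen over 4 hr (Klf2, Klf5, Esrrb, Tfcp2l1, Tbx3, and Nr5a2), Nr0b1 had fallen, and Klf4, Zfp42, and Tcl1 did not pass the test. The largest rise was that of Klf5 and the largest fall that of Nr0b1 at each of the 3 later times. The median log2 fold changes of the members at 16, 24, and 32 hr were 0.475, 0.565, and 0.476. The test was edgeR's quasi-likelihood test in an additive model of medium and time on all 8 libraries, with p-values adjusted by Benjamini-Hochberg over 14931 genes. Its error is how far the media depart from parallel courses, as there are no replicate cultures. The background is that 20.5% of all genes were called at 24 hr, 11.5% as higher and 8.98% as lower. At 16 hr, 7 members were called, 5 higher and 2 lower, against 16.4% of all genes (9.16% higher, 7.24% lower). At 32 hr, 7 were called, again 5 higher and 2 lower, against 25.3% of all genes (13.5% higher, 11.8% lower). A further fit, added after seeing the data, took the share of the 3 uneven features as a covariate. The log2 changes at 24 hr of the 7 called members kept their sign and lay between -1.03 and 2.01. Their adjusted p (edgeR) ran from 0.088 to 0.35 and none was called, with 87 genes called in all. The share was 0.028% and 0.011% at 4 hr but 5.918% and 6.369% at 24 hr, in 2i and with vitC. This covariate thus nearly coincides with 24 hr against 4 hr, so that the loss of calls there was largely set in advance. With this covariate the members called were Tfcp2l1 and Nr0b1 at 16 hr and Klf5, Esrrb, Tfcp2l1, and Zfp42 at 32 hr. Without the medium term they were Klf2, Tfcp2l1, Tbx3, and Nr0b1 at 16 hr and Esrrb, Tfcp2l1, and Tbx3 at 32 hr. Correcting for GC content and length turned the balance over all genes at 24 hr, from 1720 higher and 1341 lower to 1419 higher and 1697 lower.

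**Figure D2:**
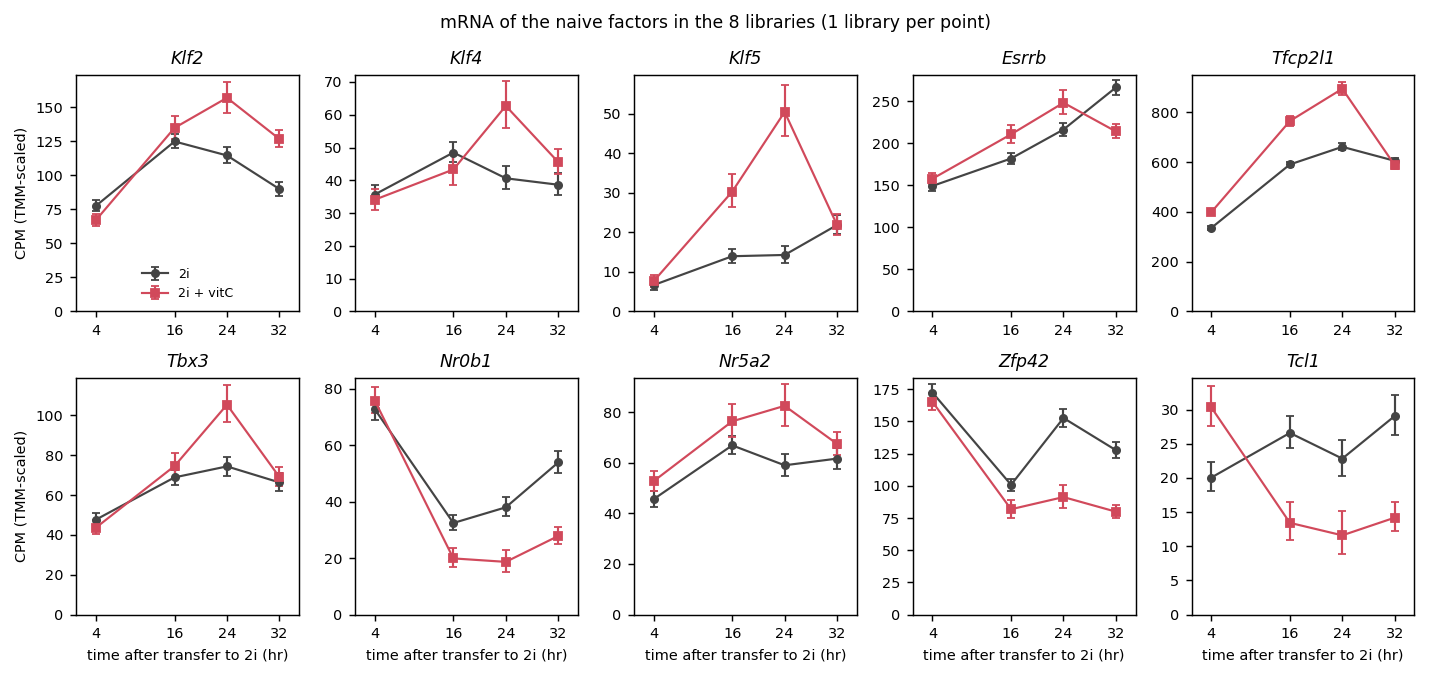
CPM of each member against hours after transfer to 2i, with circles for 2i, squares for 2i with vitC, 1 library per point, and bars for the Wilson 95% counting interval. Nr0b1 and Zfp42 lie lower at 16 to 32 hr than at 4 hr in both media, Tcl1 only with vitC, and the other 7 genes lie higher.

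**Figure D3:**
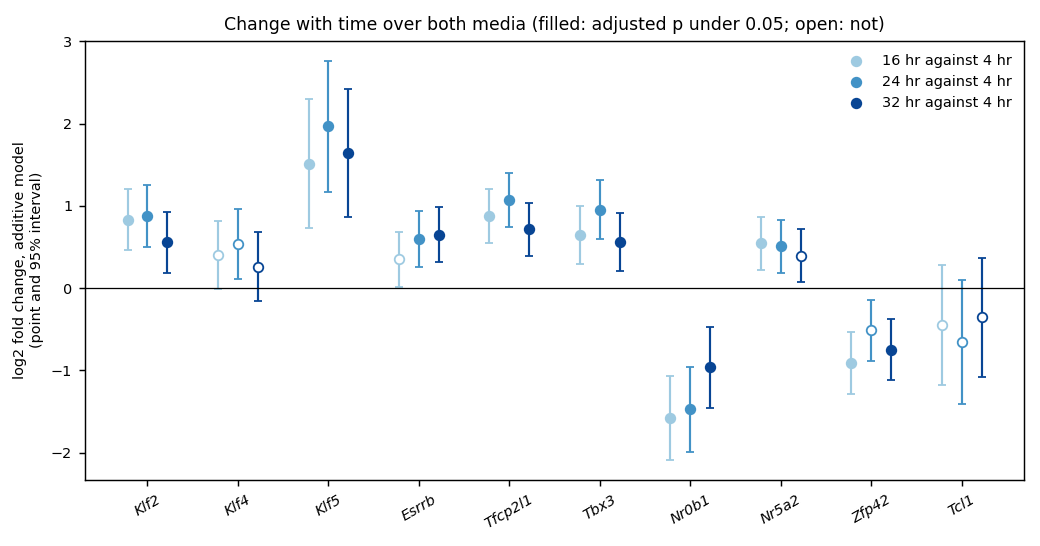
Log2 fold change of each member at 16, 24, and 32 hr against 4 hr in the additive model over both media, with 95% intervals, filled where the adjusted p is under 0.05. Klf5 reaches 1.97 and Nr0b1 -1.58, while Klf4 and Tcl1 are open at all 3 times.

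Among the KLF factors, Klf2 and Klf5 rose and Klf4 did not pass the test at any time. Klf2 was at 77.5, 125, 115, and 89.9 CPM in 2i and at 67.1, 135, 157, and 127 CPM with vitC. Both 4 hr libraries lay below all 6 later ones. Its log2 change was 0.83 ± 0.17 (SE) at 16 hr (adjusted p = 0.0082, edgeR), 0.88 ± 0.17 at 24 hr (adjusted p = 0.0047), and 0.56 ± 0.17 at 32 hr (adjusted p = 0.033). The call at 32 hr was lost when GC content and gene length were corrected for (log2 change 0.31, adjusted p = 0.17) and without the medium term (0.067). With the covariate the calls at 16, 24, and 32 hr were lost (adjusted p = 0.063, 0.26, and 0.095, edgeR). In 2i the level passed a maximum at 16 hr and by 32 hr was 1.16-fold that at 4 hr, whereas with vitC it was still 1.89-fold.

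Klf5, the member with the lowest level, started at 6.64 CPM in 2i and 7.62 CPM with vitC at 4 hr, with counting intervals of 5.53 to 7.98 CPM and 6.28 to 9.25 CPM. At 16, 24, and 32 hr it stood at 13.9, 14.3, and 21.9 CPM in 2i and at 30.3, 50.5, and 21.9 CPM with vitC. The highest library in 2i was thus the last, and with vitC that of 24 hr. Its log2 change was 1.51 ± 0.36 at 16 hr (adjusted p = 0.016, edgeR), 1.97 ± 0.37 at 24 hr (adjusted p = 0.0034), and 1.64 ± 0.36 at 32 hr (adjusted p = 0.006). Without the medium term the calls at 16 hr and 32 hr were lost (adjusted p = 0.077 and 0.051), and with the covariate those at 16 hr (0.089) and 24 hr (0.18). Its SE at these times was the largest of the members, and its courses in the media differed in shape.

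Klf4, a direct target of STAT3 and a factor of the original reprogramming cocktail, was at 35.7, 48.5, 40.6, and 38.6 CPM in 2i and at 34.1, 43.3, 62.7, and 45.5 CPM with vitC. All later libraries were above both 4 hr libraries, by a margin that was small except in the vitC library of 24 hr. The log2 changes of 0.41 ± 0.19, 0.53 ± 0.20, and 0.26 ± 0.19 at 16, 24, and 32 hr had adjusted p-values of 0.17, 0.071, and 0.34 (edgeR).

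Tfcp2l1 had the most counts of all members. Tfcp2l1 was at 335, 591, 662, and 605 CPM in 2i and at 399, 766, 895, and 588 CPM with vitC. Both 4 hr libraries lay far below the 6 later ones, and both media had their maximum at 24 hr. The log2 change was 0.88 ± 0.15 at 16 hr (adjusted p = 0.0032, edgeR), 1.08 ± 0.15 at 24 hr (adjusted p = 0.00069), and 0.71 ± 0.15 at 32 hr (adjusted p = 0.0048). It kept these calls in all alternatives except the covariate fit at 24 hr, where its adjusted p was 0.088. A small nuclear RNA gene, Gm23497, lies within its exons and had 0 counts.

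Esrrb, the receptor that links GSK3 inhibition to the naive network, passed the test from 24 hr on. It was at 149, 182, 216, and 267 CPM in 2i and at 158, 211, 248, and 214 CPM with vitC. In 2i each later library was above the one before, whereas with vitC the 32 hr library was back near that of 16 hr. Esrrb did not pass the test at 16 hr (0.35 ± 0.15, adjusted p = 0.14, edgeR), and had risen at 24 hr (0.60 ± 0.15, adjusted p = 0.018) and at 32 hr (0.65 ± 0.15, adjusted p = 0.0097). With the GC and length correction these calls were lost (log2 changes of 0.42 and 0.42, adjusted p = 0.067 and 0.064). The call at 24 hr was also lost with the covariate (adjusted p = 0.35, edgeR).

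Nr5a2, which binds the Oct4 enhancer, had the smallest change of the 6 genes that rose at 24 hr. It was at 45.6, 66.8, 59.0, and 61.6 CPM in 2i and at 52.7, 76.3, 82.5, and 67.4 CPM with vitC. The later libraries were all above both 4 hr libraries. The log2 change passed at 16 hr (0.55 ± 0.15, adjusted p = 0.026, edgeR) and 24 hr (0.51 ± 0.15, adjusted p = 0.03) but not at 32 hr (0.40 ± 0.15, adjusted p = 0.065). These calls were marginal, since at 24 hr they were also lost when libraries were thinned to the smallest total (adjusted p = 0.1), without the medium term (0.089), and without the 32 hr pair (0.051).

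Tbx3, the member on the Akt arm of LIF signalling, was at 47.7, 68.9, 74.4, and 66.4 CPM in 2i and at 43.6, 74.6, 105, and 69.1 CPM with vitC. The maximum was at 24 hr in both media and was higher with vitC. Tbx3 had risen at 16 hr (0.65 ± 0.16, adjusted p = 0.02, edgeR), at 24 hr (0.95 ± 0.17, adjusted p = 0.0022), and at 32 hr (0.56 ± 0.16, adjusted p = 0.024). At 32 hr the call was lost with the GC and length correction (0.32, adjusted p = 0.13). With the covariate the calls at 16, 24, and 32 hr were lost (adjusted p = 0.088, 0.16, and 0.055, edgeR). The antisense gene Tbx3os1, whose exons overlap those of Tbx3 by 115 bases, had 7 counts over all 8 libraries.

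Nr0b1 and Zfp42 fell, against the direction of the members that rose. Nr0b1 was at 72.8, 32.5, 38.0, and 54.0 CPM in 2i and at 75.9, 19.9, 18.7, and 27.9 CPM with vitC. All 6 later libraries lay below both 4 hr libraries, and in 2i the level partly returned by 32 hr. Its log2 change was -1.58 ± 0.23 at 16 hr (adjusted p = 0.0015, edgeR), -1.47 ± 0.24 at 24 hr (adjusted p = 0.0015), and -0.96 ± 0.23 at 32 hr (adjusted p = 0.0093). This corresponds to 2.24-fold lower at 16 hr in 2i and 3.81-fold lower with vitC. At 32 hr its call was lost without the medium term (adjusted p = 0.11) and with the covariate (0.061). The call at 24 hr was also lost with the covariate (adjusted p = 0.32, edgeR).

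Zfp42, the gene most often used to report the naive state, was at 172, 101, 153, and 128 CPM in 2i and at 165, 81.8, 91.3, and 79.9 CPM with vitC. The 4 hr libraries were the highest in both media, but in 2i the 24 hr library was only 1.13-fold lower than that of 4 hr. Zfp42 had fallen at 16 hr (-0.91 ± 0.17, adjusted p = 0.0052, edgeR) and 32 hr (-0.75 ± 0.17, adjusted p = 0.0078), whereas at 24 hr (-0.51 ± 0.17) its adjusted p of 0.052 lay just past the threshold and in 5 alternatives, among them DESeq2 (0.045), was below it. Its calls were lost without the medium term at 16 hr (adjusted p = 0.059) and 32 hr (0.083), and with the covariate at 16 hr (0.054).

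Tcl1 had its lowest and highest levels at different times in the media. It was at 20.04, 26.6, 22.8, and 29.1 CPM in 2i and at 30.3, 13.4, 11.6, and 14.2 CPM with vitC. In 2i the 4 hr library was the lowest of the 4 (counting interval 18.0 to 22.3 CPM), though its interval overlapped that of the 24 hr library (20.3 to 25.6 CPM). With vitC it was the highest, and its interval (27.5 to 33.4 CPM) lay above those of the 3 later libraries. The log2 changes over both media of -0.45 ± 0.34, -0.65 ± 0.35, and -0.35 ± 0.33 did not pass (adjusted p = 0.39, 0.21, and 0.47, edgeR). Tcl1b1, Tcl1b3, Tcl1b4, and Tcl1b5, its neighbouring paralogs, had 0 counts and Tcl1b2 had 1.

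Between 16 hr and 32 hr, which ran on the same lane, 0 of the 10 members passed edgeR's test, against 0.583% of all genes, with 1 member at an unadjusted p under 0.05 and 0 called by DESeq2. That member was Nr0b1, whose 32 hr libraries were higher than those of 16 hr in both media (log2 change 0.62 ± 0.23, adjusted p = 0.26). The median log2 change of the members was 0.005. Esrrb (0.30 ± 0.15) and Klf2 (-0.28 ± 0.17) had the next largest values, with adjusted p = 0.41 and 0.49.

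With vitC, 3 members were lower and 3 were higher than in 2i in every library of 16 to 32 hr, and the other 4 overlapped. Nr0b1, Zfp42, and Tcl1 were the lower ones and Klf2, Klf5, and Nr5a2 the higher ones. Klf5 is counted here on a tie within rounding, since its 32 hr libraries were at 21.85 CPM in both media. The 3 vitC libraries all lay below the 3 of 2i in 8.41% of all genes and all above in 9.54%. None of the 10 members passed edgeR's test of vitC against 2i with time as a block over all 4 pairs, with 6 at an unadjusted p under 0.05 and 1 (Nr0b1, adjusted p = 0.035) called by DESeq2. In this test 0.167% of all genes were called (0.107% higher and 0.0603% lower) and 13.8% had an unadjusted p under 0.05. Nr0b1 (-0.63 ± 0.17, adjusted p = 0.11), Zfp42 (-0.44 ± 0.12, adjusted p = 0.12), and Klf5 (0.79 ± 0.25, adjusted p = 0.18) were closest to the threshold. Without the 4 hr pair, Nr0b1 (log2 change -0.89, adjusted p = 0.013), Zfp42 (-0.57, adjusted p = 0.036), and Tcl1 (-0.99, adjusted p = 0.012) were called as lower in edgeR. Of all genes, 0.526% were called as lower and 2.08% as higher in this fit. The largest positive value, that of Klf5 (0.97), had an adjusted p of 0.09 (edgeR). Without the pair of 16, 24, or 32 hr, 0 members were called each time, with 13, 11, and 0 genes called in all. Lane 7 holds the pairs of 16 hr and 32 hr. Within it, Nr0b1 (-0.83, adjusted p = 0.036) and Tcl1 (-1.01, adjusted p = 0.023) were called as lower in edgeR. Of all 14306 genes tested there, 183 were called, 138 as higher and 45 as lower. Within lane 8, 0 of all 14303 genes were called, so the absence of calls there is not particular to the members. Lane 8 also holds the 4 hr pair, in which Tcl1 was higher with vitC (log2 ratio 0.60).

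**Figure D4:**
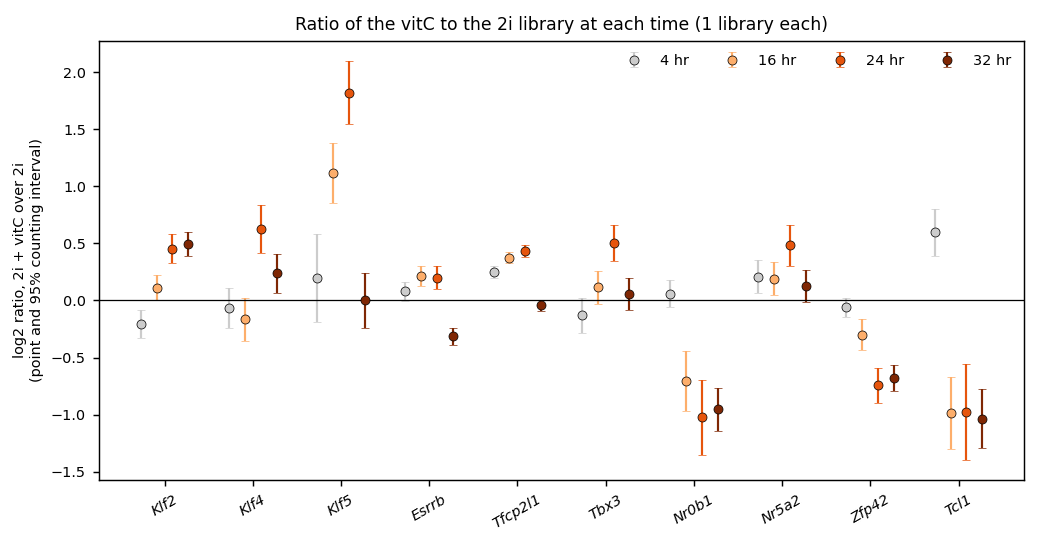
Log2 ratio of the vitC library to the 2i library at 4, 16, 24, and 32 hr for each member, with 95% counting intervals and 1 library on each side. Nr0b1, Zfp42, and Tcl1 are below 0 at 16, 24, and 32 hr, Klf5 reaches 1.82 at 24 hr and 0.00 at 32 hr, and Tcl1 changes from 0.60 at 4 hr to -0.99 at 16 hr.

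Nr0b1 was at nearly the same level in both media at 4 hr, with a log2 ratio of vitC to 2i of 0.06, and was lower with vitC by a log2 ratio of -0.70 at 16 hr, -1.02 at 24 hr, and -0.95 at 32 hr, or 1.63-, 2.04-, and 1.94-fold. Zfp42 was likewise near equality at 4 hr (-0.06) and lower with vitC afterwards (-0.30, -0.74, and -0.68). Tcl1 was 1.51-fold higher with vitC at 4 hr and 1.98-, 1.97-, and 2.05-fold lower at 16, 24, and 32 hr. For these 3 genes the counting intervals at 16, 24, and 32 hr excluded equality. In the 24 hr pair the share of the uneven features was alike in both media (5.918% and 6.369%). For each of these 3 genes the counting intervals at 24 hr and 32 hr overlapped. The cause of these ratios was not tested. With the share as a covariate in the fit over all pairs, Tcl1 was at -0.12 (adjusted p = 0.96), Nr0b1 at -0.45 (0.74), and Zfp42 at -0.43 (0.65).

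Among the members that were higher with vitC, Klf5 stood out at 16 hr (2.17-fold) and 24 hr (3.54-fold, log2 ratio 1.82 with a counting interval of 1.54 to 2.10), but its 32 hr libraries were equal within rounding, so that it counts as higher there by less than any counting error. Klf2 was slightly lower with vitC at 4 hr (-0.21) and higher at 16, 24, and 32 hr (0.11, 0.45, and 0.49). Nr5a2 was higher with vitC at all 4 times, by log2 ratios of 0.21, 0.19, 0.48, and 0.13. Klf5 and Nr5a2 were the members above 2i in all 4 pairs and Zfp42 the member below in all 4, against 11% and 10.7% of all genes. At 24 hr, 7 members were higher with vitC and 3 lower, each by more than its counting interval. The vitC library of that time was also the shallowest. Counting intervals hold no variation between cultures, and the share of all genes with such ratios was not computed. This count is therefore not a result about the members.

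Esrrb, Tfcp2l1, Tbx3, and Klf4 overlapped between the media. Esrrb was higher with vitC at 16 hr (0.21) and 24 hr (0.20) and lower at 32 hr (-0.32). Tfcp2l1 was higher by 0.25, 0.37, and 0.44 on the log2 scale at 4, 16, and 24 hr, and at 32 hr its ratio was -0.04. Tbx3 (0.50) and Klf4 (0.63) had their largest ratios at 24 hr. Over all pairs the log2 effects of vitC were 0.04 ± 0.11 for Esrrb, 0.25 ± 0.11 for Tfcp2l1, 0.14 ± 0.12 for Tbx3, and 0.15 ± 0.14 for Klf4, with adjusted p from 0.31 to 0.9 (edgeR).

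Whether the vitC effect changed along the course was tested with a linear term per hour. None of the 10 members passed edgeR's test (adjusted p = 1 for each), 0 of the 14931 genes did, and DESeq2 called 0 members. At an unadjusted p under 0.05 there were 4 members (Klf2, Nr0b1, Zfp42, and Tcl1) and 2.89% of all genes. The log2 effect of vitC changed per hour by -0.057 ± 0.017 (SE) for Tcl1, -0.038 ± 0.012 for Nr0b1, -0.025 ± 0.011 for Zfp42, and 0.027 ± 0.01 for Klf2. When a step between 4 hr and the later times was fitted instead, chosen after seeing the data, the effect at 16 to 32 hr minus that at 4 hr was -1.60 ± 0.31 for Tcl1 (adjusted p = 0.48, edgeR) and -0.95 ± 0.26 for Nr0b1 (adjusted p = 0.6). In simulated libraries the linear test recovered 13% of 2-fold and 78% of 4-fold changes.

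The wider naive network moved in both directions. Of 18 other naive genes, 6 had risen and 3 had fallen at 24 hr against 4 hr, with a median log2 change of 0.26. Of all genes, 11.5% were called as higher and 8.98% as lower in this comparison. Dppa3, a maternal factor that protects imprints (1.41, adjusted p = 0.0024, edgeR), Jam2 (1.13, 0.0012), Pecam1 (0.88, 0.0019), and the dioxygenase gene Tet2 (0.62, 0.025) were among those that rose. Mkrn1 (-1.04, 0.0015), Dppa4 (-1.03, 0.018), and Zfp281, a factor of the exit from the naive state (-0.48, 0.039), fell. Nanog did not pass (0.02, 0.94). Sall4 was the 1 gene of this list called as higher with vitC (0.74, adjusted p = 0.032). Of the 4 core factors, Sox2 rose (1.03, 0.0008), Pou5f1, which encodes Oct4, fell (-0.68, 0.0047), and Utf1 fell (-3.11, 0.00013).

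The lists of the signalling inputs hold pathway components as well as target genes, and their counts at 24 hr against 4 hr stand beside 11.5% of all genes called as higher and 8.98% as lower. Of 10 genes of LIF and STAT3 signalling, 3 rose, namely the kinase gene Pim1 (1.17, adjusted p = 0.00049, edgeR), Lifr (0.55, 0.016), and the feedback inhibitor Socs3 (0.47, 0.038), and Gfpt2 fell. Of 12 genes of GSK3, beta-catenin, and TCF, 5 rose and 1 fell. Among known beta-catenin targets, Cdx1 (2.67, 3.3e-05) and Axin2 (0.63, 0.035) rose, T fell (-1.12, 0.0087), and Sp5 was at -0.44 (adjusted p = 0.078, edgeR). The rise of Axin2 was mostly in the vitC library, from 51.25 to 109.7 CPM, against 49.2 to 56.5 CPM in 2i. Tcf7l1, the repressor of several members, was itself higher (2.13, 0.011), mostly in the vitC library of 24 hr (23.0 CPM against 5.17 in 2i). Of 9 ERK output genes tested, Etv4 (-5.38, 9e-06) and the phosphatase gene Dusp4 (-3.55, 8.8e-05) fell, and Spry2 (0.86, 0.015) and Myc (2.24, 0.0063) rose. Of 8 formative and primed genes tested, Dnmt3b (-2.08, 9e-06), Dnmt3l (-3.86, 1.4e-05), and Pim2 (-1.86, 0.0004) fell and Sox3 (1.50, 0.02) rose. None of the genes in these lists of inputs was called for vitC in edgeR.

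Of 14 other KLF genes, 11 were expressed enough to be tested. At 24 hr Klf7 (0.71, adjusted p = 0.019, edgeR) and Klf13 (0.61, 0.018) rose and none fell, with a median of 0.20, against 20.5% of all genes called. At 32 hr Klf13 (0.70, 0.0071) and Klf15 (1.16, 0.002) rose and Klf8 (-0.70, 0.0094) and Klf12 (-1.10, 0.016) fell, against 25.3% of all genes called. Klf6 (60.5 RPKM in median) and Klf10 (60.1 RPKM) were at a level near that of Klf2. Of 19 paralogs of the other members, 8 were tested and 0 were called at 24 hr in edgeR. At 32 hr Esrra, the paralog of Esrrb, rose (0.89, adjusted p = 0.0058), and Ubp1 (-0.53, 0.036) and Grhl1 (-1.38, 0.044), relatives of Tfcp2l1, fell. Yy1, the relative of Zfp42, lay between 73.9 and 95.2 CPM in all libraries. Among the cofactors and partners, the coactivator genes Crebbp (0.84, 0.024) and Ep300 (0.65, 0.041) rose at 24 hr. These rises were mostly in the vitC library. From 4 hr to 24 hr, Crebbp went from 33.5 to 41.6 CPM in 2i and from 38.9 to 103.9 CPM with vitC. Ep300 went from 63.4 to 72.4 CPM in 2i and from 74.0 to 154.6 CPM with vitC. At 32 hr neither was called (-0.05 and 0.04). Rlim, whose product marks Zfp42 protein for degradation, fell at 24 hr (-0.48, 0.024). Ncoa3, the coactivator of Esrrb, was not called.

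Across the 8 libraries the 7 members with a positive log2 change correlated with each other (Pearson r of log2 CPM from 0.54 for Klf4 and Esrrb to 0.95 for Tfcp2l1 and Tbx3). Nr0b1, Zfp42, and Tcl1 correlated negatively with all 7, from -0.32 for Tcl1 and Esrrb to -0.97 for Nr0b1 and Klf2, and positively among themselves (0.69 to 0.89). These values describe 8 libraries that share time points, lanes, and media. The groups were formed by the direction of change in the same libraries, which largely set the signs of r in advance. Among 1229 variable genes, the most similar to Nr0b1 was Cth, an enzyme of cysteine synthesis (r = 0.979), followed by Mkrn1 (0.975). The most similar genes were Tmem192 for Klf2 (0.989), Zfp414 for Klf4 (0.937), Tpp1 for Klf5 (0.987), Zeb2 for Esrrb (0.983), Brwd3 for Tfcp2l1 (0.993), Lrrc8d for Tbx3 (0.982), Fry for Nr5a2 (0.988), Pla2g7 for Zfp42 (0.975), and Slc16a3 for Tcl1 (0.911). Tcf7l1 came next for Klf4 (0.921), and Pdk1 for Tcl1 (0.911).

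The libraries carried the markers of ESCs throughout. The summed level of 10 ESC markers lay between 2176 and 2416 CPM in 2i and between 1974 and 2559 CPM with vitC. The calls given for marker lists stand beside 11.5% of all genes higher and 8.98% lower at 24 hr. At 32 hr, 13.5% were called as higher and 11.8% as lower. Of the 10 ESC markers, Sox2 (1.03, adjusted p = 0.0008, edgeR) had risen at 24 hr. Pou5f1 (-0.68, 0.0047), Utf1 (-3.11, 0.00013), Dppa4 (-1.03, 0.018), and Lin28a (-0.92, 0.0013) had fallen. The 9 primitive endoderm markers summed to 165 to 229 CPM in 2i and 204 to 257 CPM with vitC, mostly from Col4a1 and Lama1, and its defining factors Gata4, Gata6, and Sox17 were each below 5 CPM in all libraries. Of the 7 tested, 3 had risen at 24 hr and none had fallen, and at 32 hr Sox17 (2.89, 0.03), Pdgfra (1.68, 0.0039), Dab2 (1.28, 0.0056), and Lama1 (0.68, 0.0034) had risen. The 9 trophoblast markers summed to 790.2 to 1584 CPM in 2i and 630 to 1127 CPM with vitC, mostly from Krt8 and Krt18, were highest at 4 hr in both media, and included Elf5 below 1 CPM. Of the 8 tested, 5 had fallen and 1 had risen at 24 hr, and the same numbers held at 32 hr. The 8 fibroblast markers summed to 700.3 to 815 CPM in 2i and 707 to 1113 CPM with vitC, mostly from Vim, Col1a1, and Col1a2, while Lum had 12 counts in all. Their sum was highest in the vitC library of 24 hr. Of the 7 tested, Col1a1 (2.35, 0.0002), Col1a2 (2.25, 2.2e-05), and Pdgfrb (0.79, 0.025) had risen at 24 hr and Vim (-0.44, 0.037) had fallen. The 5 of 8 markers of 2-cell-like cells that were matched summed to 4.68 to 8.32 CPM in 2i and 3.75 to 8.22 CPM with vitC. None of these markers of other cells was called for vitC in edgeR. The part of other cell states in the changes of the members was not tested, and fewer cells that express a gene and less RNA per cell cannot be told apart in bulk RNA.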

How the data were processed

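RNA of E14 cells was depleted of ribosomal RNA, prepared with the TruSeq kit, and sequenced as 50 bp single-end reads. The authors deposited counts per Ensembl gene, without normalization. Per the labels, the submitters' processing notes name GSNAP, HTSeq, and the builds NCBIM37 and mm9. The annotation and the strand setting of the counting are not given in the sources used here. Symbols, merged exon lengths, and GC content came from GENCODE M21, which held 32604 of the 37263 identifiers. Its coordinates were used for the exon lengths and for genes that overlap the members. Promoters came from RefSeq (GRCm38.p6). Total counts were 4753528 to 18434932 per library. No 2 libraries held identical counts.

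The 14931 genes that reached 1 CPM in 2 or more libraries were tested. Tests used edgeR 4.0.16 (TMM scaling, quasi-likelihood, Benjamini-Hochberg, threshold 0.05) in R 4.3.3, with medium and time as terms (3 residual degrees of freedom) and a medium by hours term for the change of the vitC effect (2 residual degrees of freedom). The p-values measure only departures between these libraries. Log2 ratios between 2 libraries were taken from the CPM without a prior count. Log2 CPM, used for the correlations and for overlap between the media, had a prior count of 2. Wilson 95% intervals and the floor of 3 counts cover counting error only, since the reads carry no molecular identifiers. On simulated counts, 79% of 2-fold and 100% of 4-fold changes were recovered for 24 hr against 4 hr (14564 genes, 8 false calls). For vitC against 2i the values were 96% and 100% (14615 genes, 13 false calls). Recovery by the test of vitC against 2i was not tested for effects that differ between times. Tcl1 had such ratios of vitC to 2i (log2 ratio 0.60 at 4 hr and -0.99 at 16 hr).

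The members, the gene lists, and the rule for named genes were chosen with earlier results of these data known. Named were all members, list genes that passed a test or were said not to, and the most similar protein-coding genes by Pearson r over the 8 libraries (mean of at least 5 CPM, SD of at least 0.5). For 1 gene of the list of cofactors and partners the result is not reported here. Alternatives were other scalings, DESeq2 1.42.0, other filters, omission of the uneven features, a GC and length correction (14519 genes), thinning, models without a term, omission of each time pair, and fits within lanes. The covariate and the step were chosen after seeing the data.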

Additional observations from a re-analysis of the deposited data

Results flagged for a closer look

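Tcl1 moved in opposite directions in the media between 4 hr and 16 hr, with a log2 ratio of 16 hr over 4 hr of 0.41 in 2i and -1.18 with vitC, and between 4 hr and 32 hr, with 0.54 in 2i and -1.10 with vitC. Klf5 differed in the same way between 16 hr and 32 hr, with a log2 ratio of 32 hr over 16 hr of 0.65 in 2i and -0.47 with vitC. Each ratio compares 1 library with 1 library. For Tcl1 the difference did not pass edgeR's test with a linear term per hour (adjusted p = 1) or with a step after 4 hr, chosen after seeing the data (adjusted p = 0.48). For Klf5 the difference between 16 hr and 32 hr was not tested on its own, and the nearest fit, the linear term without the 4 hr pair, gave -0.071 per hour (adjusted p = 0.59, edgeR).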

How the results depend on the processing

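Replicate numbers pair nothing, because each combination of medium and time holds 1 library. The libraries of the media were instead paired by time, which is a block in the test of vitC against 2i. No setting moved the median log2 change of all genes by more than 0.1. Thinning to the smallest total ended the calls of Nr5a2 at 16 hr (adjusted p = 0.088) and 24 hr (0.1), although each member had at least 54 counts in every library.

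Members called numbered 4 at 16 hr and 3 at 32 hr against 4 hr without the medium term, and 2, 0, and 4 at 16, 24, and 32 hr with the share of the uneven features as a covariate. For 32 hr against 16 hr the number was 1 without a filter. For vitC it was 1 with DESeq2, 4 without a filter, 3 without the 4 hr pair, and 2 within lane 7. Genes called without the medium term were 1289 at 16 hr (from 2448), 1891 at 24 hr (from 3061), and 11 for 32 hr against 16 hr (from 87). With the covariate they were 801, 87, and 2451 at 16, 24, and 32 hr against 4 hr (from 3785 at 32 hr). For 32 hr against 16 hr, DESeq2 called 239, no filter gave 589, and omission of the 24 hr pair gave 54. For vitC (25 genes), the counts were 54 with scaling by totals, 299 with DESeq2, 690 without a filter, 13 with a filter at 5 CPM, 60 without the uneven features, 11 with the GC and length correction, 162 after thinning, 0 without the time block, 0 with the covariate, 183 within lane 7, and 0 within lane 8. Without the pair of 4, 16, 24, or 32 hr they were 381, 13, 11, and 0. For the vitC effect per hour (0 genes), DESeq2 called 1, no filter gave 5, and omission of the pair of 4, 24, or 32 hr gave 4, 8, and 2.

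Directions turned for values near 0 or for Tcl1, and none of these was called in either fit. Tcl1 had log2 changes of 0.14, 0.44, and 0.075 at 16, 24, and 32 hr against 4 hr with the covariate, and for 32 hr against 16 hr of -0.067 with the covariate and -0.025 with the GC and length correction. The vitC effect on Esrrb (0.043) was -0.011 without the 16 hr pair, -0.008 without the 24 hr pair, and -0.052 within lane 7. The slope of the vitC effect per hour turned for Klf5 after thinning (-0.004), without the 4 hr pair (-0.071), and without the 24 hr pair (-0.012), for Tbx3 without the 4 hr pair (-0.004), for Nr5a2 without the 4 hr pair (-0.005) and the 24 hr pair (-0.003), for Esrrb (0.006) and Tfcp2l1 (0.009) without the 32 hr pair, and for Tfcp2l1 as a step (0.006). The cause of these shifts was not tested.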
